A study of Homo sapiens with 8 samples.

Results

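The genes described here belong to the p53 pathway: regulators of p53 and genes that p53 is known to activate. They were taken from a list of 33 symbols. Of these, 30 had at least 1 probe set annotated to that symbol alone and were measured, among 19775 genes measured so in all. BBC3, BTG2 and FDXR had no such probe set and were not analysed here. Each gene was read from the probe set with the highest mean over the 8 arrays, a choice that does not depend on any difference between groups. The samples were A549 cells, a human lung adenocarcinoma line, grown as spheroids (3D cultures) or as monolayers (2D cultures). In each culture type, treated cells had been given 2 rounds of TNF (10 ng/ml) together with TGFβ (2 ng/ml), each of 48 h, and control cells had not. The groups were 3D treated, 3D control, 2D treated and 2D control, with 2 Affymetrix U133 Plus 2.0 arrays each. All cells came from 1 line, so nothing here extends to other lines. The study's methods call the array pairs technical duplicates and its deposited design calls them biological replicates, so the p-values below measure only the spread between these arrays, which may be technical.

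p53 is a transcription factor that is held at low levels in unstressed cells by MDM2, a ubiquitin ligase, and by its relative MDM4. When DNA damage or other stress frees it, p53 binds pairs of a short motif, the p53 half-site, and raises genes for cell cycle arrest, DNA repair, cell death and metabolism, together with genes such as MDM2 and PPM1D that switch it off again. A549 cells retain wild-type p53. Many of these genes also answer to other regulators, among them the SMAD proteins that TGFβ activates and the NF-κB proteins that TNF activates, so a change in a target gene is not by itself a measure of p53.

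Values are log2 expression as deposited, on which 1 unit is a 2-fold difference. No value lay below 2.23 and the array medians lay between 2.43 and 2.50, so values close to these carry no signal. All 30 members were above the median of the array on 2 arrays or more, as were 12661 of the 19775 genes, called the brighter genes below. A probe set with the same value on all arrays can pass this rule, so brighter does not mean that a signal was seen. The 2 arrays of a group correlated at r = 0.993 to 0.996 across brighter probe sets. Of 6 epithelial markers of the line, KRT8, KRT18, KRT7 and CDH1 were high on all arrays. EPCAM ranged over 5.75 to 8.60 and KRT19 over 6.79 to 9.87. Of 9 measured markers of leukocytes, endothelium, liver and red cells 5, among them PTPRC, CD3E, CDH5 and ALB, were never above the array median. The others lay above the array medians: CD14 ranged over 5.28 to 9.69, LYZ over 3.13 to 8.64, PECAM1 over 4.24 to 4.61 and HBB over 2.81 to 3.53. HBB read 3.17 on the first 3D treated, the first 2D treated and the second 2D control array. A repeat of this kind can mark a floor of the probe set itself, so HBB is not shown to carry signal. A gene is called where its limma adjusted p, by Benjamini-Hochberg over 54613 probe sets, is under 0.05.

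The promoter windows show whether an exact copy of the p53 motif lies close to a start site. RefSeq windows (GRCh38.p14), each of 300 bases with 250 before and 50 after a start site, were found for 26 of the 30 members, in 34 windows. A p53 half-site, searched on both strands by exact match to its consensus, was in 6 of the 34 windows (17.6%), against 6.63% of all 35116 windows. The 6 belong to AEN, DDB2, EI24, PLK2, RPS27L and SESN1. A match of this kind describes the letters of a window and is not evidence of binding. No match says only that the window holds no exact copy. Sites with a mismatch were not searched and may lie in it. Windows of the 4 members below are printed because each was called in at least 1 comparison, with the half-sites in capitals. The genes are AEN (chr15:88621090-88621389, plus strand), DDB2 at its second start (chr11:47214724-47215023, plus strand), PLK2 (chr5:58460037-58460336, minus strand) and RPS27L (chr15:63157428-63157727, minus strand).
AEN: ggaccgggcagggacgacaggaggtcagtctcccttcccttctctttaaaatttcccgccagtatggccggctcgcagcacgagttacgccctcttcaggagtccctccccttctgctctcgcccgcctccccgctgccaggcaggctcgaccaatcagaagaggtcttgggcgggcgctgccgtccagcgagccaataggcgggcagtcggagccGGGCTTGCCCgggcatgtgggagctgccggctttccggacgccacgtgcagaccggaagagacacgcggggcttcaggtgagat
DDB2: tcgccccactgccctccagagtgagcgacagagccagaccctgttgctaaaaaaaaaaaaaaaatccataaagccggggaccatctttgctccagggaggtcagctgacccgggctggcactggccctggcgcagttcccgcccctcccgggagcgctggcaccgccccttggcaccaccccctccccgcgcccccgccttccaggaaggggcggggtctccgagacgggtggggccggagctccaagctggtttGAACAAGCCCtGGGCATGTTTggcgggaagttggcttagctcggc
PLK2: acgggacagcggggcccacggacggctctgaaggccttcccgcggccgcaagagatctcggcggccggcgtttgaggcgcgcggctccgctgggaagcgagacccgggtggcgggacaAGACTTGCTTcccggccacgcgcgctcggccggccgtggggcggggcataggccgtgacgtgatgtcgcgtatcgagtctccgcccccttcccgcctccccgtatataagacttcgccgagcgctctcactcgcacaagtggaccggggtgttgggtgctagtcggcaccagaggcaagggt
RPS27L: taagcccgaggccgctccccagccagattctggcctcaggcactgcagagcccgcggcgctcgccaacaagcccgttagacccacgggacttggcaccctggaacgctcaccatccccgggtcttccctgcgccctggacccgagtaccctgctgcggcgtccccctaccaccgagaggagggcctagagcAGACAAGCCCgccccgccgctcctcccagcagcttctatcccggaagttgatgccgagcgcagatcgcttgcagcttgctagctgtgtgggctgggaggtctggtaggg

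By exact match, DDB2 differed from the other members in these windows. Its second start carried 2 half-sites separated by 1 base. Such a close pair was in 1 of 34 member windows (2.94%) and in 0.0285% of all windows. Pairs with a mismatch were not searched, so other members may hold them. In AEN, PLK2 and RPS27L a single half-site began 34, 132 and 59 bases before the start. The κB motif of NF-κB was in 0 of 34 member windows, against 5.91% of all windows. The AP-1 motif TGANTCA, searched on both strands, was in the windows of 2 of 26 members, MDM2 and PERP (7.69%), against 9.37% of all genes with a window. The member windows were also richer in G and C, with a median of 67.7% against 58.7% in all windows. The part of base composition in these shares was not tested.

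Culture as spheroids went with higher values of a set of these genes in both treated and control cells. On 11 of the 30 members, all 4 3D arrays lay above all 4 2D arrays, and on 2, BAX and MDM4, all lay below. Among brighter genes the shares were 14.7% above and 19.8% below. The 11 were CDKN1A, GADD45A, BTG1, DDB2, AEN, STEAP3, TRIAP1, TP53I3, SESN1, SPATA18 and CCNG1. With TNF and TGFβ, 6 members were called higher and 3 lower in 3D cultures, where 8.42% of brighter genes were higher and 16.8% lower, and 0 were called in 2D cultures by limma. Over the 5 comparisons described below, 18 members were called at least once and 12 never. The same share over all genes was not computed, so the count is no result about the members.

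**Figure D1:**
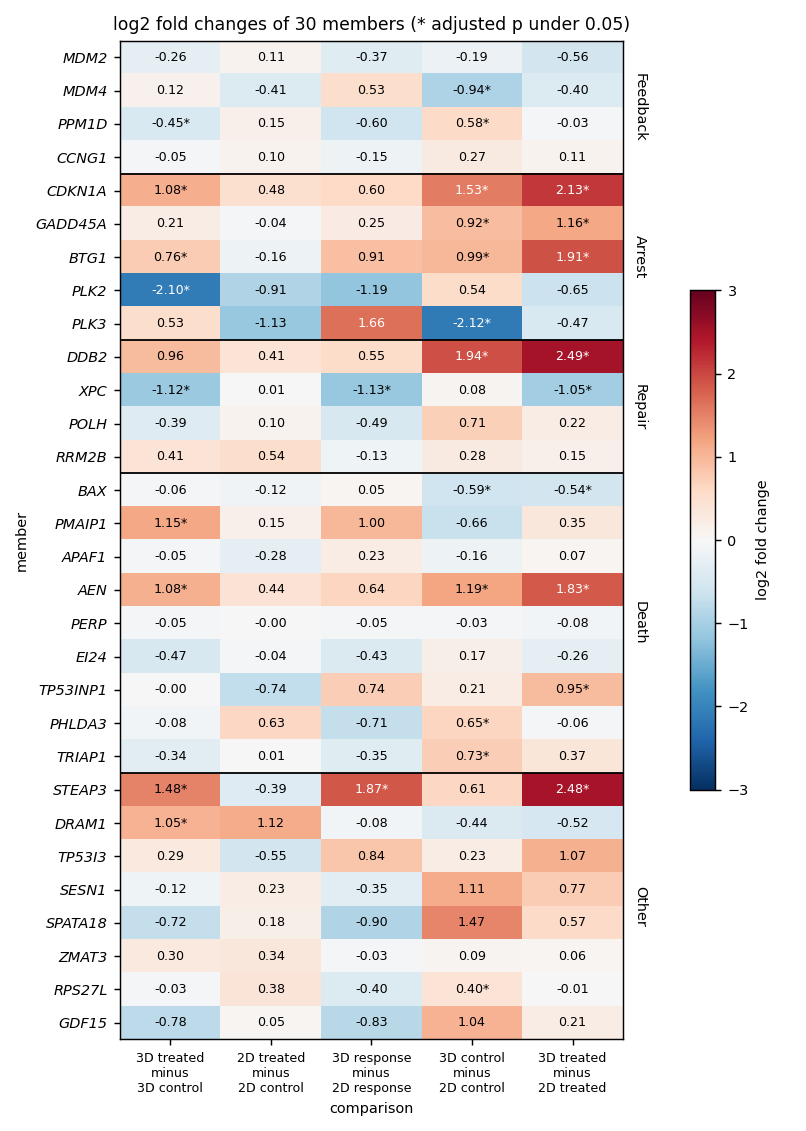
Log2 fold changes of the 30 members (rows, grouped by role) in the 5 comparisons (columns), with an asterisk where the limma adjusted p is under 0.05. Red stands for higher and blue for lower in the first-named group. The 2D response column holds no asterisk, and the 3D against 2D columns hold 12 in control and 9 in treated cultures.

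Among the genes that arrest the cell cycle, CDKN1A, which encodes the CDK inhibitor p21, followed both culture and treatment. It measured 12.43 and 12.46 on the 3D treated arrays, 11.26 and 11.47 on the 3D control arrays, 10.39 and 10.23 on the 2D treated arrays, and 9.79 and 9.88 on the 2D control arrays. The 4 groups did not overlap, in the order 3D treated, 3D control, 2D treated, 2D control. In 3D cultures treatment raised it by 1.08 ± 0.0948 (log2 fold change ± SE, 2.11-fold, limma adjusted p = 0.00866). In 2D cultures the change of 0.48 did not pass (adjusted p = 0.257), and the difference between the responses, 0.60, did not pass either (adjusted p = 0.126). Between culture types CDKN1A was 1.53 higher in 3D control than in 2D control cells (2.88-fold, adjusted p = 0.00823) and 2.13 higher in 3D treated than in 2D treated cells (4.38-fold, adjusted p = 0.00194).

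GADD45A, a stress sensor that binds PCNA, separated the cultures but hardly the treatments. It measured 10.25 and 10.43 in 3D treated, 10.14 and 10.11 in 3D control, 9.17 and 9.18 in 2D treated, and 9.25 and 9.17 in 2D control cells. All 3D arrays were above all 2D arrays, by 0.92 in control (1.89-fold, adjusted p = 0.0105) and 1.16 in treated cultures (2.24-fold, adjusted p = 0.00285). BTG1, an antiproliferative adaptor of the CCR4-NOT deadenylase, was bright on all arrays. Its values were 15.14 and 15.08 in 3D treated, 14.23 and 14.48 in 3D control, 13.25 and 13.16 in 2D treated, and 13.37 and 13.34 in 2D control cells. The 3D treated arrays were the highest, followed by the 3D control arrays, and the 2D treated arrays were the lowest. Treatment raised BTG1 by 0.76 ± 0.0931 in 3D (1.69-fold, adjusted p = 0.0173), and its 2D change was −0.16 (adjusted p = 0.92). The difference of 0.91 between the responses missed the threshold (adjusted p = 0.0584). BTG1 was 0.99 higher in 3D than in 2D control cultures (adjusted p = 0.0163) and 1.91 higher in 3D than in 2D treated cultures (3.75-fold, adjusted p = 0.00221). A second probe set of the gene was called in the same direction in the 3D response and in both culture comparisons, at 0.54, 0.93 and 1.60.

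PLK2 and PLK3 are polo-like kinases of the stress response. PLK2 had the largest change of any member in the 3D response, and it was downward. It measured 9.20 and 9.73 in 3D treated, 11.49 and 11.64 in 3D control, 10.23 and 10.01 in 2D treated, and 11.32 and 10.72 in 2D control cells. Within each culture type both treated arrays were below both control arrays. PLK2 fell by 2.10 ± 0.286 on the log2 scale in 3D (4.28-fold, adjusted p = 0.0217), and its 2D change of −0.91 did not pass (adjusted p = 0.502). The responses were not shown to differ (difference −1.19, adjusted p = 0.271). PLK3 was dim, at 4.31 and 4.42 in 3D treated, 3.59 and 4.09 in 3D control, 4.40 and 5.27 in 2D treated, and 6.05 and 5.88 in 2D control cells. The 2D control arrays were the highest. PLK3 was 2.12 ± 0.349 lower in 3D than in 2D control cells (4.36-fold, adjusted p = 0.0437), but a second probe set of similar brightness gave a difference of 0.10 there, so the direction of PLK3 is not settled.

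**Figure D2:**
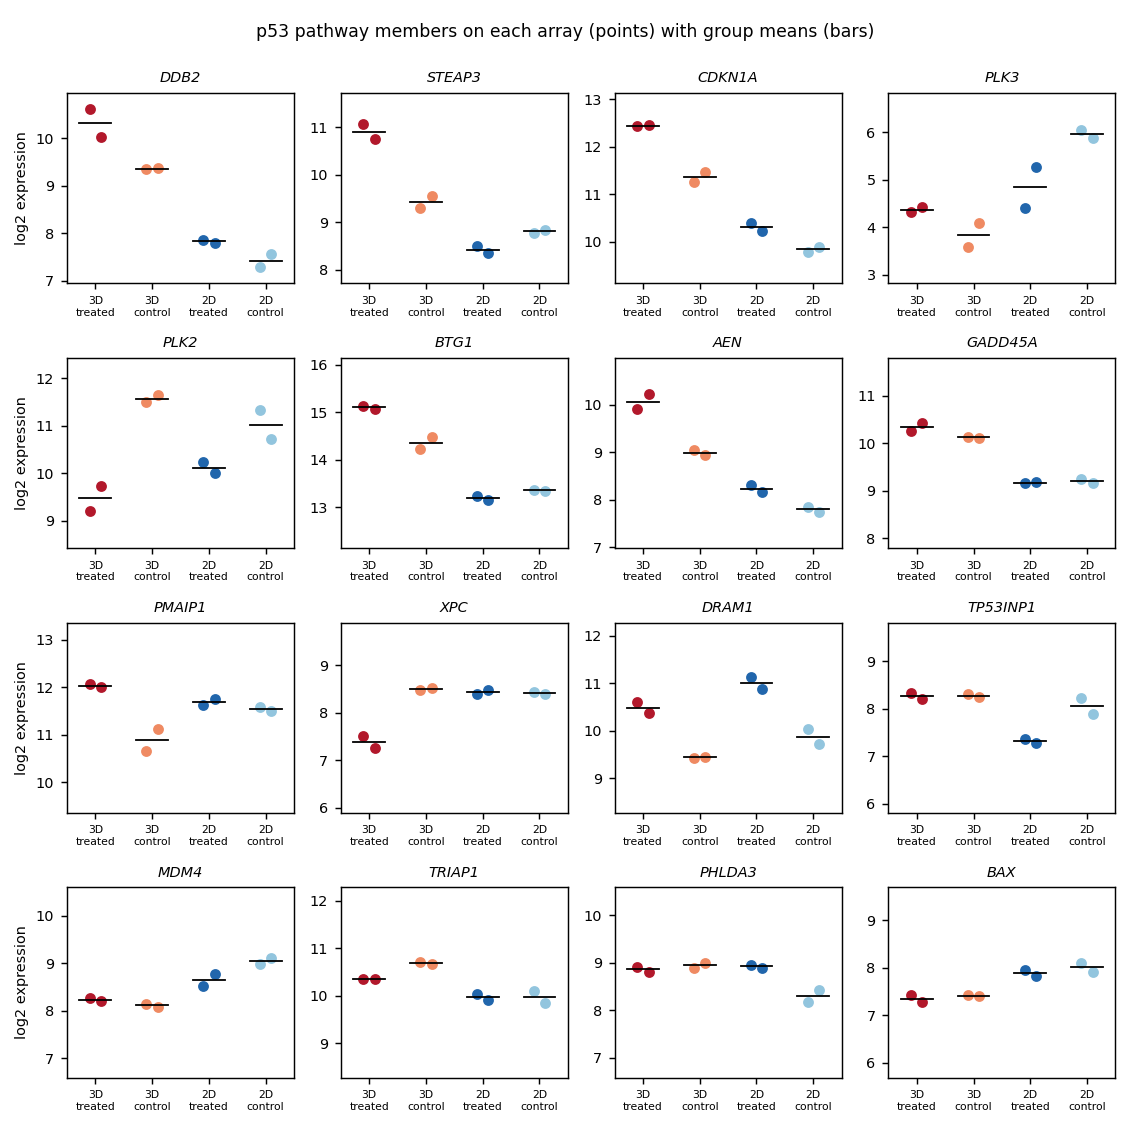
Log2 expression (vertical axes, each spanning 4 units) on the 8 arrays for the 16 members with the largest called changes, with points for arrays and bars for group means (n = 2 each). CDKN1A, DDB2 and AEN step down from 3D treated to 3D control, 2D treated and 2D control without overlap, and XPC is low only on the 3D treated arrays.

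The members that serve DNA repair moved apart. DDB2 and XPC both recognise damaged DNA in nucleotide excision repair, DDB2 as part of the UV-DDB complex. DDB2 measured 10.61 and 10.02 in 3D treated, 9.35 and 9.37 in 3D control, 7.85 and 7.80 in 2D treated, and 7.28 and 7.56 in 2D control cells. The groups did not overlap and stood in the order seen for CDKN1A. DDB2 was 1.94 ± 0.222 higher in 3D control than in 2D control cells (3.83-fold, adjusted p = 0.0228) and 2.49 ± 0.222 higher in 3D treated than in 2D treated cells (5.61-fold, adjusted p = 0.00626). These were the highest values among the members in the 2 culture comparisons, the second next to STEAP3 at 2.48. Its response to treatment did not pass in 3D (0.96, adjusted p = 0.0765) or in 2D (0.41, adjusted p = 0.92). DDB2 is the gene whose second start carries the pair of half-sites printed above.

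XPC measured 7.51 and 7.26 in 3D treated cells, 8.48 and 8.53 in 3D control, 8.39 and 8.48 in 2D treated, and 8.44 and 8.40 in 2D control cells. The 3D treated arrays were the lowest, and the other 6 arrays lay within 8.39 to 8.53. Treatment changed XPC in 3D cultures by −1.12 ± 0.0935 (2.17-fold, adjusted p = 0.00785), and its 2D change was 0.01 (adjusted p = 1). The responses differed by −1.13 ± 0.132 (adjusted p = 0.0402). XPC was also lower in 3D treated than in 2D treated cells (−1.05, 2.07-fold, adjusted p = 0.00622), while 3D and 2D control cells differed by 0.08 (adjusted p = 0.904). The other repair members, POLH (a DNA polymerase that copies past damage, 5.74 to 7.11 over the 8 arrays) and RRM2B (a subunit of ribonucleotide reductase, 9.74 to 10.50), were called in no comparison.

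Members with roles in cell death went both ways. AEN, a nuclease linked to apoptosis, measured 9.91 and 10.23 in 3D treated, 9.04 and 8.94 in 3D control, 8.31 and 8.16 in 2D treated, and 7.85 and 7.74 in 2D control cells. Its groups again did not overlap and had the order of CDKN1A and DDB2. AEN rose by 1.08 ± 0.131 with treatment in 3D (2.11-fold, adjusted p = 0.0169), and its 2D change was 0.44 (adjusted p = 0.469). The gene was 1.19 higher in 3D control than in 2D control cells (2.29-fold, adjusted p = 0.0213) and 1.83 higher in 3D treated than in 2D treated cells (3.56-fold, adjusted p = 0.0043). PMAIP1, the BH3-only protein NOXA, measured 12.06 and 12.00 in 3D treated, 10.65 and 11.11 in 3D control, 11.62 and 11.75 in 2D treated, and 11.57 and 11.50 in 2D control cells. The 3D control arrays were the lowest and the 3D treated arrays the highest. PMAIP1 rose by 1.15 ± 0.164 in 3D (2.22-fold, adjusted p = 0.0242), and its second probe set rose by 1.34. Its 2D change was 0.15 (adjusted p = 1), and the responses were not shown to differ (2.01-fold, adjusted p = 0.136).

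BAX, which forms pores in the outer mitochondrial membrane, was lower in 3D. It measured 7.43 and 7.27 in 3D treated, 7.42 and 7.41 in 3D control, 7.96 and 7.82 in 2D treated, and 8.10 and 7.91 in 2D control cells. No 3D array reached the lowest 2D array. The differences were −0.59 in control (1.51-fold, adjusted p = 0.0423) and −0.54 in treated cultures (1.46-fold, adjusted p = 0.0296), and a second probe set was called only in the treated comparison, at −0.97. TP53INP1, a stress protein with roles in autophagy, measured 8.34 and 8.21 in 3D treated, 8.31 and 8.24 in 3D control, 7.36 and 7.29 in 2D treated, and 8.22 and 7.90 in 2D control cells. The 2D treated arrays were the low ones. It was 0.95 ± 0.122 higher in 3D treated than in 2D treated cells (1.93-fold, adjusted p = 0.0134), and its change of −0.74 with treatment in 2D did not pass (adjusted p = 0.194).

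PHLDA3, a repressor of AKT, measured 8.91 and 8.82 in 3D treated, 8.89 and 9.00 in 3D control, 8.97 and 8.89 in 2D treated, and 8.17 and 8.42 in 2D control cells. The 2D control arrays were lower than the other 6. PHLDA3 was 0.65 higher in 3D control than in 2D control cells (1.57-fold, adjusted p = 0.0398), and a second, dimmer probe set gave 0.18 there and was not called. TRIAP1, a mitochondrial protein that counters apoptosis, measured 10.35 on both 3D treated arrays, 10.72 and 10.67 in 3D control, 10.04 and 9.92 in 2D treated, and 10.10 and 9.84 in 2D control cells. The 3D control arrays were the highest and the 2D arrays the lowest. TRIAP1 was 0.73 higher in 3D control than in 2D control cells (1.66-fold, adjusted p = 0.0299). APAF1, the scaffold of the apoptosome, ranged over the arrays within 7.29 to 7.69, EI24, a protein of the endoplasmic reticulum, within 8.64 to 9.35, and PERP, a membrane protein of desmosomes, within 14.47 to 14.62. None of these was called, although a second PERP probe set passed in the control culture comparison with a difference of 0.10.

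STEAP3 and DRAM1 act on membranes inside the cell, STEAP3 as an iron reductase of endosomes and DRAM1 as a lysosomal protein of autophagy. STEAP3 measured 11.07 and 10.74 in 3D treated, 9.29 and 9.55 in 3D control, 8.49 and 8.35 in 2D treated, and 8.78 and 8.84 in 2D control cells. The 3D arrays were above the 2D arrays, and treated arrays were above control arrays in 3D but below them in 2D. Its response in 3D was 1.48 ± 0.151 (2.80-fold, adjusted p = 0.0116), while in 2D it was −0.39 (adjusted p = 0.667). The responses differed by 1.87 ± 0.213 (adjusted p = 0.0385). STEAP3 was 2.48 ± 0.151 higher in 3D treated than in 2D treated cells (5.59-fold, adjusted p = 0.00323), and the difference of 0.61 between control cultures did not pass (adjusted p = 0.104). A second probe set of STEAP3 was called in the 3D response, at 1.88, and between treated cultures, at 2.87.

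DRAM1 measured 10.61 and 10.37 in 3D treated, 9.43 and 9.46 in 3D control, 11.13 and 10.89 in 2D treated, and 10.04 and 9.73 in 2D control cells. Treated arrays were above control arrays in both culture types, and 2D arrays were above 3D arrays of the same treatment. The change was 1.05 ± 0.156 in 3D (2.06-fold, adjusted p = 0.0266) and 1.12 ± 0.156 in 2D (2.18-fold, adjusted p = 0.144). The responses differed by −0.08 ± 0.22 (adjusted p = 1). DRAM1 thus passed in 1 culture type and not in the other with changes of nearly equal size, as adjusted p-values also depend on how many other genes changed in a comparison.

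By their main probe sets the feedback regulators differed by less than 2-fold in every comparison. MDM4 measured 8.26 and 8.20 in 3D treated, 8.14 and 8.07 in 3D control, 8.51 and 8.76 in 2D treated, and 8.98 and 9.11 in 2D control cells. All 3D arrays were below all 2D arrays, by −0.94 ± 0.103 in control cultures (1.91-fold, adjusted p = 0.0213) and by −0.40 in treated cultures, which did not pass (adjusted p = 0.0768). A second MDM4 probe set of similar brightness gave −0.85 between control cultures and did not pass (limma adjusted p = 0.0754), so the call depends on the probe set. MDM2 was called nowhere: it lay between 8.85 and 9.71 over the 8 arrays, with a change of −0.26 in 3D (adjusted p = 0.649) and 0.11 in 2D (adjusted p = 1). Of its other probe sets, 1 much dimmer one was called, 1.14 higher in 3D treated than in 2D treated cells, where the main probe set gave −0.56. PPM1D, the phosphatase WIP1 that dephosphorylates p53, measured 8.88 and 8.94 in 3D treated, 9.33 and 9.40 in 3D control, 8.92 and 8.96 in 2D treated, and 8.86 and 8.72 in 2D control cells. The 3D control arrays stood above the rest. It was lower by −0.45 ± 0.0593 in 3D treated than in 3D control cells (1.37-fold, adjusted p = 0.02) and 0.58 higher in 3D control than in 2D control cells (1.49-fold, adjusted p = 0.0193). CCNG1, cyclin G1, lay within 12.42 to 12.74 and was not called.

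The remaining members varied more between arrays of a group or less between groups. GDF15, a secreted member of the TGFβ superfamily, ranged over 10.33 to 11.60, and its 2 3D treated arrays differed by 0.78. SESN1, which restrains mTORC1, ranged over 4.81 to 6.57, and SPATA18, a mitochondrial quality control protein, over 4.09 to 6.25. Both SESN1 and SPATA18 had larger values in 3D than in 2D control cells, by 1.11 and 1.47, with adjusted p = 0.284 and 0.192. TP53I3, a quinone oxidoreductase, was 1.07 higher in 3D treated than in 2D treated cells (adjusted p = 0.0782). RPS27L, a ribosomal protein paralog, lay within 13.93 to 14.39 and was 0.40 higher in 3D control than in 2D control cells (1.32-fold, adjusted p = 0.0288), while 2 dimmer probe sets gave 0.45 and 0.60 without passing. ZMAT3, an RNA-binding zinc finger protein, was not called by its main probe set, which changed by 0.30 in 3D and differed by 0.09 and 0.06 between cultures. Another ZMAT3 probe set of similar level was called higher in the 3D response (0.81), in 3D against 2D control cells (0.63) and in 3D against 2D treated cells (0.99). A dimmer one was called in the same 3 comparisons (0.91, 0.99 and 1.38) and another dimmer one in both culture comparisons (0.83 and 0.80), so the rule for the probe set decides this gene.

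**Figure D3:**
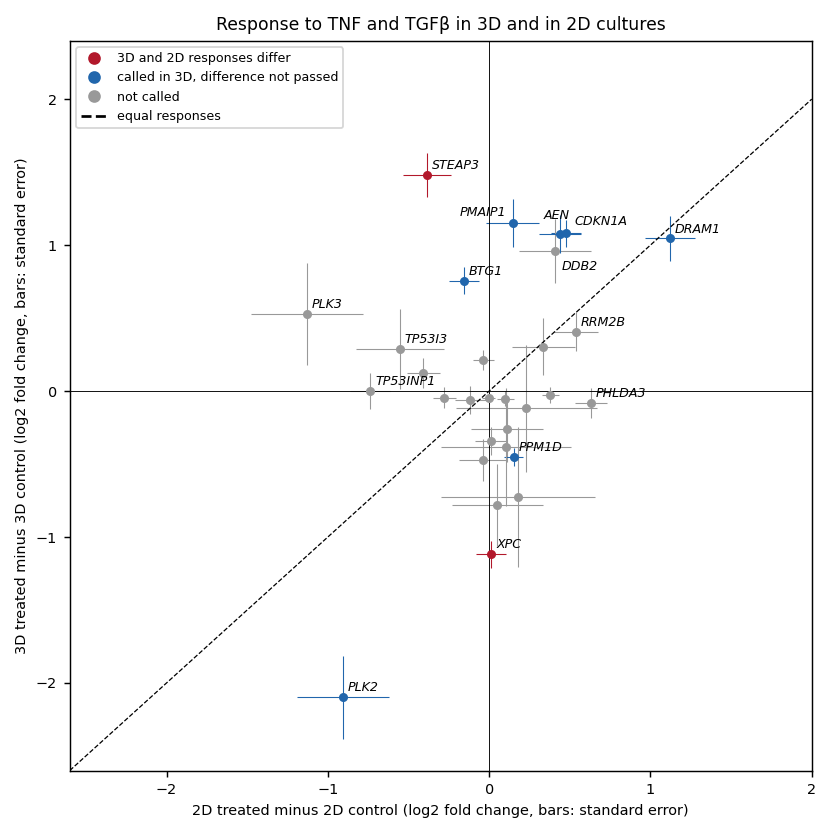
Log2 fold change with treatment in 3D (vertical) against that in 2D (horizontal) for the 30 members, with standard errors from limma as bars and equality as a dashed line. STEAP3 and XPC (red), with 3D changes of 1.48 and −1.12 and 2D changes of −0.39 and 0.01, are the members whose difference between the responses was called. Other members, such as BTG1 (difference 0.91 ± 0.132), also lie off the line by more than their standard error without passing. DRAM1 lies near the line.

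Set against all genes, the counts read as follows. In the 3D response, 6 of 30 members were called higher and 3 lower, whereas 5.53% of all genes and 8.42% of brighter genes were called higher and 10.8% and 16.8% lower. The median change of the members was −0.04, and that of the brighter genes −0.12. CDKN1A, PMAIP1, BTG1, AEN, STEAP3 and DRAM1 rose, and XPC, PLK2 and PPM1D fell. Leaving out any 1 array kept CDKN1A, XPC and STEAP3. PMAIP1 ended without any array other than the 3D control ones (adjusted p up to 0.079), BTG1 without either 3D treated or either 2D control array (up to 0.0543), PLK2 without the first 3D treated, either 3D control or either 2D treated array (up to 0.0991), AEN if either 3D control array was missing (up to 0.0795), and PPM1D and DRAM1 without any 3D or 2D treated array (up to 0.0888 and 0.113). With the 4 arrays of the comparison alone, 0 members passed.

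In the 2D response, 0 of 30 members were called by limma, against 0.121% of all genes and 0.182% of brighter genes called higher and 0.0759% and 0.111% lower. Without adjustment, 11 members (36.7%) and 16.6% of brighter genes had p under 0.05. Where dim probe sets were filtered, 1 member, DRAM1, passed (limma adjusted p = 0.0422), as did 1.83% of brighter genes. RRM2B passed without the first 2D treated array (0.73, adjusted p = 0.048) and TP53INP1 without the second 2D control array (−0.90, adjusted p = 0.0396). The 2D response called too few genes of any kind for a count to be read. In the difference between the responses, 2 members were called higher and 1 lower after quantile normalization (3.2% of all genes called). With array medians subtracted, 2 were higher and 4 lower (7.2% of all genes called). In the main fit 1 member, STEAP3, was called higher and 1, XPC, lower. The shares were 1.32% and 1.94% of all genes and 1.96% and 2.98% of brighter genes, and the calls are those of STEAP3 and XPC. Neither call outlasted every left-out array. Both ended without either 3D control array or any 2D array, with adjusted p up to 0.0943 for STEAP3 and 0.0981 for XPC, although their differences stayed within 1.70 to 2.03 and −1.26 to −1.01.

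Between 3D and 2D control cultures 9 members were called higher and 3 lower, against 5.77% of all genes and 8.93% of brighter genes called higher and 4.9% and 7.61% lower. The median difference of the members was 0.34, and that of the brighter genes 0. The 9 were CDKN1A, DDB2, BTG1, GADD45A, AEN, PPM1D, TRIAP1, PHLDA3 and RPS27L, and the 3 were MDM4, BAX and PLK3. Leaving out any 1 array kept CDKN1A and GADD45A. BTG1 ended without the second 2D control array (adjusted p = 0.0609) and BAX without any of the 8 (up to 0.159). DDB2, AEN and RPS27L ended without either 3D control or any 2D array (up to 0.0897, 0.0793 and 0.111), PPM1D without either 3D control or either 2D treated array (up to 0.0704), and TRIAP1 without any 3D or 2D treated array (up to 0.108). PLK3 ended without any 3D or 2D control array (up to 0.142), MDM4 without any 3D array or the second 2D control array (up to 0.0837), and PHLDA3 without any array other than the second 2D control one (up to 0.153). With the 4 arrays of the comparison alone, 0 members passed.

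Between 3D and 2D treated cultures 7 members were called higher and 2 lower. Of all genes 9.06% were called higher and 14.5% lower, and of brighter genes 13.9% and 22.7%. Quantile normalization gave 8 and 1 members (25.8% of all genes called), and array medians subtracted gave 7 and 4 (27.5%). In the main fit 23.6% of all genes were called. The median difference of the members was 0.13, and that of the brighter genes −0.07. The 7 were CDKN1A, TP53INP1, DDB2, BTG1, GADD45A, AEN and STEAP3, and the 2 were XPC and BAX. Of the members called higher, 5 (CDKN1A, DDB2, BTG1, GADD45A and AEN) were called in both culture comparisons, which share no arrays but share the estimate of spread. These are 55.6% of those called in control and 71.4% of those called in treated cultures, and the same shares over brighter genes are 61.7% and 39.7%. Only TP53INP1, without either 2D treated array (adjusted p up to 0.0707), and BAX, without the second 3D treated, either 3D control or either 2D treated array (up to 0.119), ended with an array left out. With the 4 arrays of the comparison alone, 2 members passed, CDKN1A and BTG1.

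**Figure D4:**
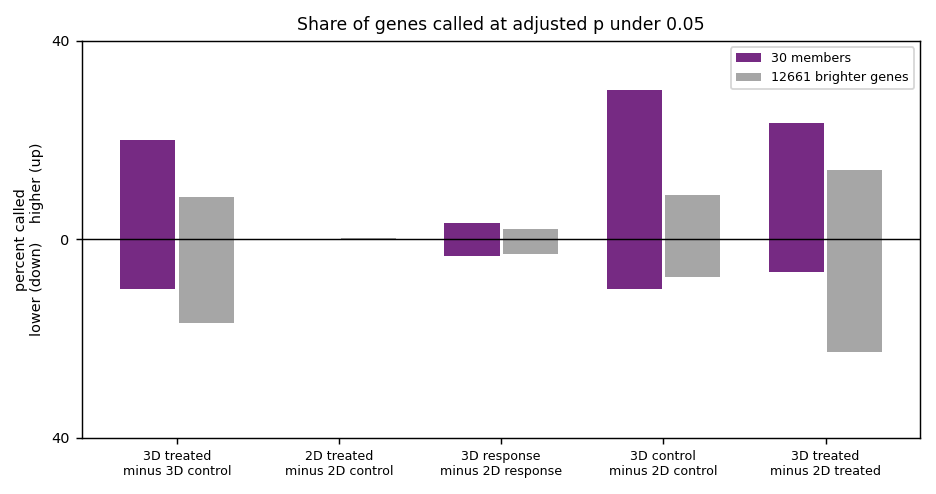
Percent of the 30 members and of the 12661 brighter genes called higher (bars upward from 0) and lower (bars downward from 0) in each comparison, at a limma adjusted p under 0.05. Of the 30 members, 6, 9 and 7 were called higher in the 3D response, in 3D against 2D control and in 3D against 2D treated cultures, beside 8.42%, 8.93% and 13.9% of the brighter genes.

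Other genes of the pathway were read from lists drawn up by function, with their full counts. In the 3D response 5.53% of all genes rose and 10.8% fell, and of brighter genes 8.42% and 16.8%. The median change was 0 over all genes and −0.12 over brighter genes. Of 36 measured further p53 target genes, 32 of them brighter, 10 rose and 7 fell there (27.8% and 19.4%), with a median of 0.01. Among them were FAS, the death receptor (1.91, adjusted p = 0.0012), CD82, a tetraspanin (2.05), NINJ1, a membrane protein of cell rupture (1.96), and KITLG, the ligand of the receptor KIT, which fell by 3.44. FAS measured 10.79 and 10.69 in 3D treated, 8.79 and 8.87 in 3D control, 9.00 and 9.08 in 2D treated, and 8.55 and 8.50 in 2D control cells, so its 3D treated arrays stood apart. TNFRSF10B, the TRAIL receptor DR5, was the one of the 36 called in the 2D response (0.49, limma adjusted p = 0.0437). Higher calls in 2D were made for 0.121% of all genes and 0.182% of brighter genes. The responses of 4 of the 36 differed between cultures, higher in 3D for FAS (1.40) and TNFRSF10B (0.69) and lower for KITLG (−2.59) and CYFIP2 (−1.19). These are 5.56% higher and 5.56% lower. Of all genes 1.32% and 1.94% were called so, and of brighter genes 1.96% and 2.98%. In 3D against 2D control cells 4 were higher and 1 lower (11.1% and 2.78%, against 5.77% and 4.9% of all genes). In treated cells 10 were higher and 6 lower (27.8% and 16.7%, against 9.06% and 14.5%). The shares of brighter genes were 8.93% and 7.61% in control cells and 13.9% and 22.7% in treated cells.

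Of 20 measured regulators of p53, 19 of them brighter, 1 rose and 2 fell in the 3D response. These shares were close to those of all genes (5.53% and 10.8%), beside 8.42% and 16.8% of brighter genes. TP53BP2 (ASPP2), which directs p53 towards death genes, rose by 1.47 (adjusted p = 0.0046), with a difference of 1.24 between the responses, while ATR, a DNA damage kinase, fell by 0.96 and HEXIM1, an inhibitor of P-TEFb, fell by 0.83. In 3D against 2D control cultures 5 regulators were lower (25%, against 4.9% of all and 7.61% of brighter genes) and 0 higher by limma. The 5 were HIPK2 (−1.56), ATM (−1.39), ATR (−1.30), HEXIM1 (−1.07) and USP7 (−0.91). HIPK2, ATM and ATR encode kinases that act on p53, and USP7 a deubiquitinase of MDM2 and p53. In treated cultures 3 were higher and 6 lower (15% and 30%). Of all genes 9.06% and 14.5% were, and of brighter genes 13.9% and 22.7%, so the share higher was close to the latter. PPP1R13L (iASPP), an inhibitor of p53, was 3.22 higher in 3D treated than in 2D treated cells. 

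CDKN1A acts on the cell cycle by repressing genes through the DREAM complex, and 32 such genes were measured, 24 of them brighter. In the 3D response 1 of the 32, MCM7, was higher (0.96) and 1, MCM4, lower (−0.74), against 5.53% and 10.8% of all genes. In 3D against 2D control cultures 0 were called by limma in either direction, against 5.77% of all genes higher and 4.9% lower. The shares of brighter genes were 8.42% and 16.8% in the 3D response and 8.93% and 7.61% between control cultures. In 3D against 2D treated cultures AURKB was higher (1.31) and MCM3 (−0.91) and MCM4 (−1.03) were lower. These are 3.12% and 6.25% of the list, against 9.06% and 14.5% of all genes and 13.9% and 22.7% of brighter genes. Several genes of proliferation in this list, among them FOXM1, CENPA and MKI67, measured between 2.23 and 2.66 on all arrays, close to the array medians, so no change in them could be seen.

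Relatives of the members were compared because a paralog can answer to other signals than p53. Of 26 measured paralogs, 21 of them brighter, 6 rose and 2 fell in the 3D response (23.1% and 7.69%), with 1 called in 2D. In the 3D response the shares were 5.53% and 10.8% of all genes and 8.42% and 16.8% of brighter genes. Higher calls in 2D were made for 0.121% of all genes and 0.182% of brighter genes. GADD45B rose by 2.60 where GADD45A changed by 0.21, BTG3 rose by 1.75 beside BTG1 at 0.76, and PHLDA1 and PHLDA2 rose by 1.96 and 1.55 where PHLDA3 changed by −0.08. BTG3 was also called in 2D (adjusted p = 0.0332). STEAP1 and STEAP2 fell by 1.12 and 0.98 in 3D where STEAP3 rose. GADD45B measured 11.43 and 12.30 in 3D treated, 9.49 and 9.05 in 3D control, 7.96 and 7.56 in 2D treated, and 8.33 and 8.46 in 2D control cells, with the 3D arrays above the 2D arrays. All 21 measured BCL2 family and caspase genes were brighter. This does not show that all were expressed, as CASP10 read 3.23 on all 8 arrays and BCL2 read 4.12 on most of them. With treatment in 3D, 5 rose and 2 fell (23.8% and 9.52%), against 8.42% and 16.8% of brighter genes (all genes: 5.53% and 10.8%). Genes that oppose death (BCL2A1 at 2.95, MCL1 at 1.28) and genes that promote it (BMF at 2.00) were among those that rose, and CASP8, an initiator caspase, fell by 1.27.

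Markers of the line moved with treatment as well. Of 6 epithelial markers, 4 were lower in 3D treated than in 3D control cells (EPCAM at −2.20, KRT8 at −1.05, CDH1 at −0.91 and KRT18 at −0.57). KRT7 and KRT19 were not called there. Of all genes 10.8% were lower in that comparison, and of brighter genes 16.8%. KRT7 measured 12.44 and 12.05 in 3D treated and 11.25 and 11.42 in 3D control cells, and KRT19 8.94 and 9.12 against 9.67 and 9.87. The mean level of the 6 was 10.94 to 10.99 on 3D treated, 11.68 to 11.76 on 3D control, 11.24 on 2D treated and 11.71 to 11.72 on 2D control arrays. Of the 9 markers of cells that the culture should not hold, CD14 alone was called, lower in 3D treated than in 3D control cells (−2.86) and in 2D treated cells (−3.58). The mean level of the 9 was 3.36 to 3.41 on 3D treated, 4.01 to 4.02 on 3D control, 3.41 to 3.61 on 2D treated and 3.52 to 3.84 on 2D control arrays. The part of these in the members' changes was not tested. In bulk RNA, fewer cells of a kind and less RNA per cell cannot be told apart.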

How the data were processed

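The deposited table holds log2 expression values that the authors made with GCRMA, which subtracts background, normalizes across arrays and reduces each probe set to 1 value. The submitters' processing notes also name limma 3.6.9. Low values are compressed towards a floor by this method, so changes of dim probe sets are less certain. Whether they are understated or overstated was not tested. All 8 arrays, 2 in each of 4 groups, were used as deposited. Of 54675 probe sets, 62 Affymetrix controls were left out. Of the 54613 tested, 41091 name 1 gene in the platform annotation, 1801 several and 11721 none, which gives 19775 genes. Arrays have no sequencing depth, and their number, 2 a group, limits the precision.

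Group means were fitted to all arrays with limma 3.58.1 in R 4.3.3 (lmFit, contrasts.fit and eBayes, 4 residual and 0.347 prior degrees of freedom), two-sided, with Benjamini-Hochberg adjustment over the tested probe sets in each of 5 comparisons. Each gene was read from its probe set with the highest mean. Members and lists were chosen with earlier results of these data known. Every member is named, per-array values are given for the 16 with the largest called changes and, chosen after its values were seen, for PPM1D, and of each other list up to 4 called genes by size of change in a comparison. Values of FAS and GADD45B on each array, the levels of FOXM1, CENPA and MKI67, and USP7, MCM3, CYFIP2, STEAP1, STEAP2 and BTG3 beside members were chosen after their values were seen. So were the levels of EPCAM, KRT7 and KRT19. Where a gene has several probe sets the others were compared, 18 members having more than 1 and all members 76. The alternatives were a replicate block, quantile normalization, array medians subtracted, a filter on dim probe sets, an intensity trend, ordinary statistics, only the arrays compared, the probe set with the largest change, a minimum fold of 2, and leaving out each array. In the last of these a group's remaining array takes its spread from the rest. Simulated data were used to test the fit. Promoter motifs were searched in RefSeq windows (GRCh38.p14) with Python 3.11.15, and plots drawn with matplotlib 3.10.9.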

Additional observations from a re-analysis of the deposited data

Results flagged for a closer look

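The 2 members below were singled out because their responses to TNF and TGFβ differed between 3D and 2D cultures in the test of the difference itself. For STEAP3 the response in 3D minus that in 2D was 1.87 on the log2 scale (limma adjusted p = 0.0385), with a change of 1.48 in 3D and −0.39 in 2D. For XPC it was −1.13 (limma adjusted p = 0.0402), with a change of −1.12 in 3D and 0.01 in 2D. Groups of 2 arrays are too small for a check of single arrays against their group.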

How the results depend on the processing

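No called change of a member turned its direction under any alternative. Of the 32 calls, 12 kept their side of the threshold whichever array was left out, and 2, those of CDKN1A and BTG1 between 3D and 2D treated cultures, kept it under every alternative run. Subtracting array medians, filtering dim probe sets and an intensity trend each kept all 32 calls, and quantile normalization and the probe set with the largest change each ended 1. Counts of called members were 9 in the 3D response, 0 in the 2D response, 2 in the difference between the responses, 12 in 3D against 2D control and 9 in 3D against 2D treated cultures. With the replicate block they were 4 in the 3D response, 0 in the difference and 5 in 3D against 2D control cultures. Over all genes the block called 10.6%, 1.14% and 4.56% in these, against 16.4%, 3.26% and 10.7% in the main fit. The block kept 18 of 32 calls. Deviations of arrays with the same number correlated at 0.28 between 2D treated and 2D control arrays and at −0.01 to 0.09 otherwise, so the numbers were not taken as pairs. With only the 4 arrays of a comparison, 2 residual degrees of freedom remain. Then 0, 0 and 2 members were called in the 3D response, in 3D against 2D control and in 3D against 2D treated cultures. Over all genes 2.68%, 1.28% and 1.71% were called. In the difference between the responses, array medians subtracted gave 6 members, the filter on dim probe sets 7, the intensity trend 4 and ordinary statistics 0. The filter called 16.7% of brighter genes. The other 3 settings called 7.2%, 4.17% and 1.57% of all genes, in that order, against 3.26% in the main fit. The cause was not tested. The filter also gave 1 member, DRAM1, in the 2D response, where it called 1.83% of brighter genes. A fold of at least 2 left 4 members in 3D against 2D control cultures, and its share over all genes was not computed. With each array left out in turn, counts ranged over 5 to 7 in the 3D response, 0 to 1 in the 2D response, 0 to 3 in the difference, 3 to 8 in 3D against 2D control and 7 to 10 in 3D against 2D treated cultures. The share of all genes called also moved with the array left out, in every comparison. These ranges are therefore no result about the members. Signal over background limits PLK3, SESN1 and SPATA18, the dimmest members.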
